A study of Mus musculus with 6 samples.

Results

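The genes described here are 41 that build, join or remodel the extracellular matrix of the tumour or mark meningeal fibroblasts, measured by RNA-seq in mouse medulloblastoma, a tumour of the cerebellum. They were chosen by symbol, and all 41 were found among 52550 genes, with 205 of 131100 transcripts. They fall into 5 fibrillar collagens, 9 basement membrane genes, 6 other collagens, 5 matricellular genes, 4 adhesive and elastic fibre glycoproteins, 4 proteoglycans, 5 genes of crosslinking and proteolysis, and 3 fibroblast or meningeal markers. The study compared 3 tumours labelled Eed mutant with 3 labelled wild type. Polycomb repressive complex 2, of which the Eed protein is an essential part, methylates histone H3 and keeps many developmental genes silent. The Eed allele, the driver of its mutation, the mouse strain, the age and the tumour model shared by both groups are not named in the sources used here. The labels do not state whether each tumour came from its own animal, and the p-values accordingly speak only to the variation among these 6 samples, which may be technical.

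Fibrillar collagens (types I, III and V) assemble into the strong fibres of connective tissue and are made mainly by fibroblasts, which in the brain lie in the meninges and around larger vessels. Basement membranes are thin sheets of type IV collagen, laminin, nidogen and perlecan that lie under endothelium and around pericytes, and in the brain they also form the limiting layer beneath the meninges. Matricellular proteins such as tenascin C, periostin and SPARC bind this matrix and cells without serving as its main structural parts.

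Depth was even, at 26186236 to 26425111 estimated counts in a library and 28424 to 28635 genes detected, and 3 counts were worth 0.114 to 0.115 CPM (counts scaled to library size). The 41 genes took 0.209% to 0.285% of all counts in the mutants and 0.199% to 0.219% in wild type. A list of 12 granule progenitor and Hedgehog tumour markers summed to 5706 to 6322 CPM in the mutants and 5830 to 5984 CPM in wild type. None of the 12 was at 0 in all libraries. With no normal tissue among the samples, these values do not check the tumour label. Eed RNA had a log2 fold change of -0.13 (SE 0.144, edgeR adjusted p = 0.656), and with the allele not given this does not check the mutant label. Skeletal muscle markers moved with the groups. In every mutant library 10 of 10 were higher than in any of wild type (100%, against 13.1% of all genes). DESeq2 called 9 of them higher (90.0%, against 2.96% of all genes). They summed to 70.1 to 359 CPM in the mutants and 7.68 to 27.8 CPM in wild type. Oligodendrocyte markers moved the other way, with 10 of 10 lower without overlap between the groups (100%, against 11.9% of all genes). DESeq2 called 8 of them lower (80.0%, against 2.26% of all genes). Their sums were 345 to 424 CPM in the mutants and 545 to 1526 CPM in wild type. The part of either in the results on matrix genes was not tested. In such bulk samples, fewer cells of a type and less RNA per cell cannot be told apart.

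The chains of type IV collagen, fibulin-2 and the lysyl oxidase relative Loxl1 were called higher in the mutants by DESeq2, and the fibril-associated collagen Col12a1 was called lower, whereas the fibrillar chains Col1a1, Col1a2 and Col3a1 had log2 fold changes of -0.13, -0.29 and -0.04 that neither tool called. DESeq2 called 4 of the 41 higher at an adjusted p of 0.05 (9.76%, against 2.96% of all genes it tested) and 1 lower (2.44%, against 2.26% of all). edgeR's quasi-likelihood test with Benjamini-Hochberg adjustment over 19145 genes, all 41 among them, called 0 of the 41, as it called 0.0% of all genes. The edgeR adjusted p of the 41 lay between 0.144 and 0.976, and limma-voom and limma-trend also called 0 of the 41. At an unadjusted p under 0.05, edgeR had 8 of the 41 higher (19.5%, against 9.29% of all genes) and 3 lower (7.32%, against 8.78%). The median log2 fold change was 0.20 over the 41 and -0.01 over all genes, and 27 of 41 were above 0 (65.9%, against 48.6% of all genes). The mutant and wild-type libraries did not overlap for 11 of the 41 (26.8%), close to the 25.1% of all genes, with 8 higher (19.5%, against 13.1% of all) and 3 lower (7.32%, against 11.9%). The calls therefore rest on DESeq2, which made more false calls than its nominal rate on simulated counts at this sample size. They also moved with single libraries: without mutant replicate 1 DESeq2 called none of the 41, and without wild-type replicate 3 it called 10. The share of all genes called was not taken for those refits. Whether the swing is particular to the 41 was therefore not tested.

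**Figure D1:**
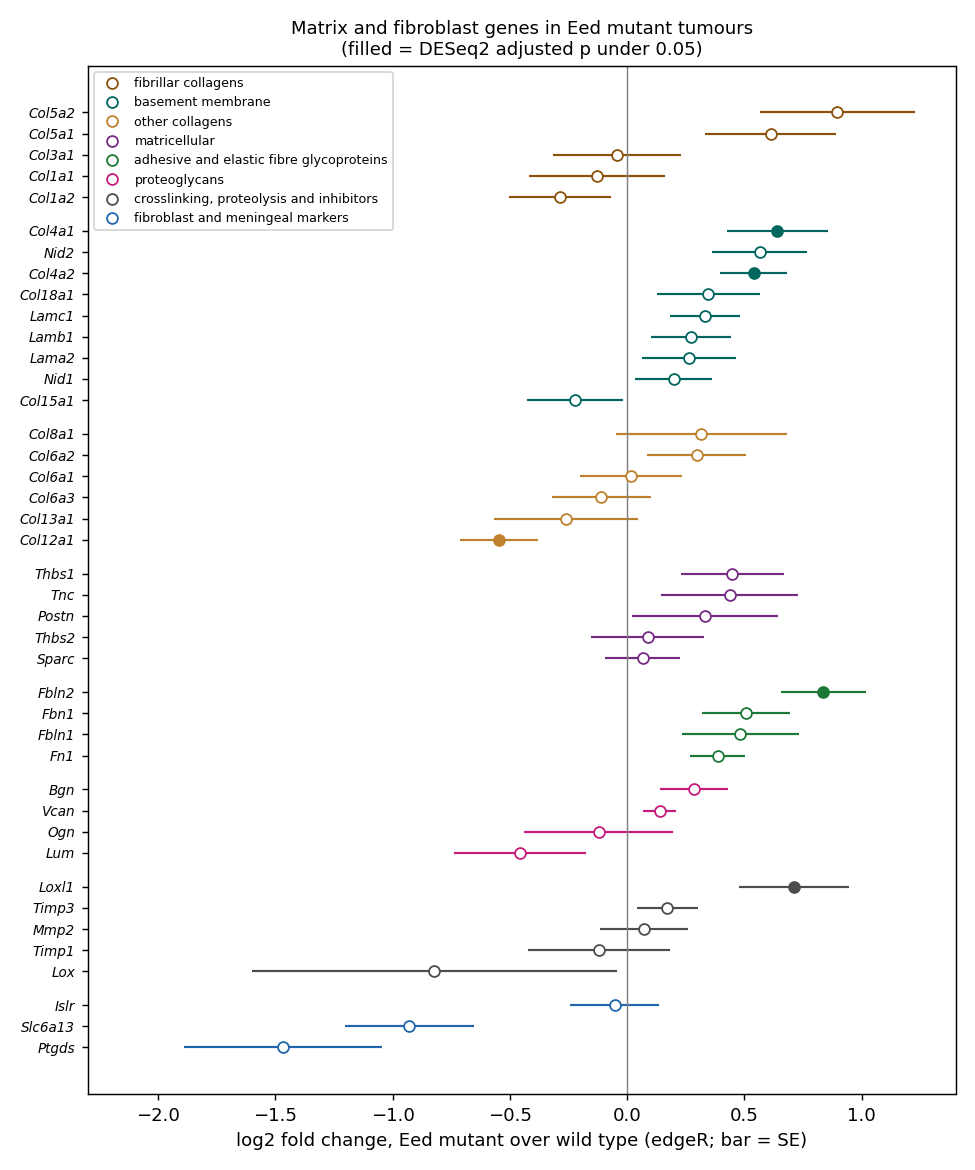
The log2 fold change of each gene, Eed mutant over wild type, is plotted with its standard error from edgeR, grouped by class, and filled points mark genes with a DESeq2 adjusted p under 0.05. The 9 basement membrane genes lie above 0 except Col15a1, the fibrillar genes spread from -0.29 to 0.90, and the 3 fibroblast markers lie below 0.

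Of the 9 basement membrane genes, 8 had fold changes above 0 (88.9%, against 48.6% of all genes), and the class median was 0.33. DESeq2 called 2 higher (22.2%, against 2.96% of all genes) and edgeR 0. The groups did not overlap for 2 of the 9 (22.2%, against 25.1% of all genes). The main network chains, Col4a1 and Col4a2, encode the alpha 1 and alpha 2 chains that form the type IV collagen of nearly all basement membranes. Col4a1 (chromosome 8, 11198423 to 11312826, minus strand, GRCm38) measured 418, 316 and 452 CPM in mutant replicates 1 to 3, against 261, 183 and 317 CPM in wild type. The lowest mutant library and the highest wild-type library, mutant replicate 2 and wild-type replicate 3, were level, so the groups just touched. The log2 fold change was 0.64 (SE 0.215, edgeR adjusted p = 0.208), and DESeq2 gave an adjusted p of 0.0472, where the 15 alternatives to the edgeR fit ranged from 0.0331 to 0.534. Col4a2 (chromosome 8, 11312805 to 11449287, plus strand) measured 173, 144 and 181 CPM in the mutants, against 112, 95.5 and 136 CPM in wild type. Here all 3 mutant libraries lay above all 3 of wild type, and mutant replicate 2 and wild-type replicate 2 were again the lowest of their groups. Its log2 fold change was 0.54 (SE 0.141, edgeR adjusted p = 0.159; DESeq2 0.0190, range over these alternatives 0.0190 to 0.481). DESeq2 no longer called either chain without mutant replicate 1, mutant replicate 3, wild-type replicate 1 or wild-type replicate 2.

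Col4a1 and Col4a2 lie head to head and are transcribed apart from a shared start region, where their annotated first exons overlap by 22 bases. Both of their 300-base promoter windows (250 bases before the RefSeq start and 50 after it) are rich in CpG, with 37 CpG dinucleotides for Col4a1 and 33 for Col4a2, against a median of 7 over 32851 mouse promoter windows. On the length-scaled TPM scale the ratio of Col4a1 to Col4a2 was 2.79, 2.60 and 2.85 in the mutants, against 2.87, 2.28 and 2.72 in wild type. The groups overlapped in this ratio (exact two-sided permutation p = 0.7, where 0.1 is the smallest that 3 against 3 allows).

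Of the linkers and laminins around this network, Nid2 had a fold change like those of the type IV chains and the others had smaller ones. Nid2 encodes nidogen-2, a linker between laminin and type IV collagen, and measured 18.8, 17.0 and 20.5 CPM in the mutants, against 11.3, 9.92 and 16.8 CPM in wild type. Its groups did not overlap, though mutant replicate 2 was barely above wild-type replicate 3 (log2 fold change 0.56, SE 0.202, edgeR adjusted p = 0.227). Its relative Nid1 had 139 to 208 CPM in the mutants and 125 to 162 CPM in wild type, with a log2 fold change of 0.20. The laminin chains Lamc1, Lamb1 and Lama2 had log2 fold changes of 0.33, 0.27 and 0.26, and mutant replicate 3 was the highest library for each. Col18a1, the collagen that yields endostatin, was at 90.2 to 107 CPM in the mutants and 62.5 to 110 CPM in wild type (log2 fold change 0.35), where wild-type replicate 3 alone reached the mutant level. Col15a1, its close relative, was the exception below 0, at 24.1 to 44.0 CPM in the mutants and 35.5 to 39.8 CPM in wild type (log2 fold change -0.22, SE 0.205). Of these 7 genes none was called by edgeR or DESeq2 over all 6 libraries. Without wild-type replicate 3, DESeq2 called Col18a1 (adjusted p = 8.6e-06) and Nid2 (9.7e-05).

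Marker lists for endothelium and for pericytes and smooth muscle, the vessel cells that make basement membrane, had most fold changes above 0, and DESeq2 called 2 of each higher. The 12 endothelial markers summed to 218 to 243 CPM in the mutants and 169 to 209 CPM in wild type. Of their fold changes, 11 of 12 were above 0 (91.7%, against 48.6% of all genes). Without overlap between the groups, 4 of them were higher (33.3%, against 13.1% of all genes) and 0 lower. DESeq2 called 2 of them higher (16.7%, against 2.96% of all genes), the receptor Kdr (log2 fold change 0.56) and the junction protein Pecam1 (0.43). The 12 pericyte and smooth muscle markers summed to 270 to 321 CPM in the mutants and 220 to 254 CPM in wild type, with 9 of 12 fold changes above 0 (75.0%, against 48.6% of all genes). Without overlap between the groups, 4 of them were higher (33.3%, against 13.1% of all genes) and 2 lower (16.7%, against 11.9%). DESeq2 called 2 higher (16.7%, against 2.96% of all genes) and 0 lower. Those called were Acta2 (1.22), the actin of smooth muscle, and Rgs5 (0.45), a pericyte marker. No marker in either list was at 0 in all libraries. The part of these cells in the type IV collagen values was not tested.

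Among 21 further laminin and basement membrane genes the median log2 fold change was 0.16, and DESeq2 called 1 higher (4.76%, near the 2.96% of all genes) and 0 lower. That gene was Hspg2, which encodes perlecan, the heparan sulfate proteoglycan of basement membranes. It measured 37.9, 35.7 and 43.0 CPM in the mutants, against 25.9, 21.3 and 28.0 CPM in wild type, with every mutant library above every wild-type library (log2 fold change 0.63, SE 0.123).

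The adhesive and elastic fibre glycoproteins had the highest class median, 0.49, with all 4 fold changes above 0. Fbln2 had the smallest adjusted p of the 41 under both edgeR and DESeq2. It encodes fibulin-2, a secreted glycoprotein that binds fibronectin, nidogen and elastic fibre proteins. The gene (chromosome 6, 91212455 to 91272540, plus strand, GRCm38) measured 31.7, 28.3 and 27.4 CPM in mutant replicates 1 to 3, against 17.6, 11.9 and 19.5 CPM in wild type. The lowest mutant library lay well above the highest of wild type, and the 3 mutant libraries were close together. The log2 fold change was 0.84 (SE 0.180, edgeR adjusted p = 0.144; DESeq2 0.00124, range over these alternatives 0.00124 to 0.474). DESeq2 called Fbln2 without each of the libraries in turn except mutant replicate 1, without which its adjusted p was 0.0783 and its log2 fold change 0.77.

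Most of the added Fbln2 counts in the mutants were assigned to Fbln2-202, a coding transcript that lacks 1 coding exon of Fbln2-201. It had 541, 500 and 461 estimated counts in the mutants, against 248, 171 and 216 in wild type. Fbln2-201 had 92.8, 93.6 and 110 estimated counts in the mutants, against 129, 73.5 and 150 in wild type. Counts of the transcript without the exon did not overlap between the groups, and those of the transcript with it did. A further transcript, Fbln2-206, had 157, 125 and 128 counts in the mutants, against 80.0, 57.8 and 120 in wild type. Fbln2-202 made up 65.5%, 67.9% and 63.7% of the gene's estimated counts in the mutants, against 53.2%, 54.3% and 42.2% in wild type. The exact two-sided permutation p was 0.1, the smallest possible, and 0.56 after adjustment over 14 genes. The exon that sets the transcripts apart, exon 9 of Fbln2-201, is 141 bases long and lies within the coding sequence at chr6:91259630-91259770 on the plus strand of GRCm38. Fibulin-2 carries a row of EGF-like modules, each built on 6 cysteines, and the exon holds 6 in-frame cysteine codons, as does the 135-base exon that follows it at chr6:91263339-91263473. The exons are shown because the share of transcripts with the first of them separated the groups; the cysteine codons are in capitals and the reference sequence is that of GENCODE M21.
Fbln2 exon 9, absent from Fbln2-202: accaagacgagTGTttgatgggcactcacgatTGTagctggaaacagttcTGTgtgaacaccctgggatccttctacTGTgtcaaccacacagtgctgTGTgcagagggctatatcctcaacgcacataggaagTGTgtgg
Fbln2 exon 10, present in both: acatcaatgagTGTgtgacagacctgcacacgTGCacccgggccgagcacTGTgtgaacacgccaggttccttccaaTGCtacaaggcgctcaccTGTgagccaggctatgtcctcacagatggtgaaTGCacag

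Transcripts with exon 9 made up 12.8%, 14.6% and 16.3% of the TPM of Fbln2 transcripts that span it in the mutants, against 30.3%, 26.4% and 34.4% in wild type. The means were 14.5% ± 1.73 in the mutants and 30.4% ± 4.04 in wild type (SD, n = 3 each), and the groups did not overlap. This measure was added after the transcript shares had been seen and is given without a test, and it rests on kallisto's division of reads among transcripts that share most of their sequence. It was 1 of 18 coding cassette exons in 8 of the 41 genes, and the groups overlapped for the other 17. That share, 5.56%, was below the 14.7% of 4027 such exons over all genes whose groups did not overlap. The leading transcript's share did not overlap between the groups for 2 of 14 of the genes with at least 2 sizeable transcripts (14.3%, against 12.8% of all such genes), Fbln2 and Sparc. Sparc-202 took 69.8%, 70.5% and 72.2% of Sparc estimated counts in the mutants, against 74.9%, 75.1% and 75.0% in wild type. The adjusted p in the exact permutation test was 0.56.

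The other genes of this class had smaller fold changes than Fbln2. Fn1 encodes fibronectin, an adhesive protein that cells assemble into fibrils through integrins, and measured 104, 106 and 116 CPM in the mutants, against 89.4, 68.3 and 91.6 CPM in wild type. The groups did not overlap and wild-type replicate 2 was the lowest library (log2 fold change 0.39, SE 0.117, edgeR adjusted p = 0.185; DESeq2 0.0751, range over these alternatives 0.0751 to 0.488). The 270-base exon of Fn1 that matches the length of the EDA module was in 46.7%, 53.2% and 55.3% of spanning transcripts by TPM in the mutants, against 50.7%, 45.4% and 57.4% in wild type, and the groups overlapped. The 273-base Fn1 exon, of the length of the EDB module, averaged 30.4% ± 3.58 in the mutants and 31.4% ± 6.21 in wild type (SD, n = 3 each). Fbn1, which encodes the microfibril protein fibrillin-1, had 10.7 to 16.6 CPM in the mutants and 8.37 to 11.0 CPM in wild type (log2 fold change 0.51, SE 0.186). Fbln1, fibulin-1, had 21.0 to 28.9 CPM in the mutants and 11.6 to 22.2 CPM in wild type (log2 fold change 0.48, SE 0.250). For both, mutant replicate 2 lay within the wild-type range.

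The fibrillar collagens did not share a direction. Col1a1 and Col1a2 encode the chains of type I collagen, the bulk of most fibroblast matrix. Col1a1 (chromosome 11, 94936224 to 94953042, plus strand) measured 21.5, 15.7 and 34.1 CPM in the mutants, against 32.5, 21.1 and 24.3 CPM in wild type. Mutant replicates 3 and 2 were the highest and lowest of all 6 libraries, with wild type in between (log2 fold change -0.13, SE 0.290, edgeR adjusted p = 0.848). Col1a2 measured 30.4, 26.9 and 48.1 CPM in the mutants, against 47.7, 37.7 and 43.0 CPM in wild type, with mutant replicate 3 at the top and the other mutants at the bottom (log2 fold change -0.29, SE 0.217, edgeR adjusted p = 0.511). Its log2 fold change ranged from -0.58 to -0.13 over the alternatives. Without mutant replicate 3, DESeq2 called Col1a2 lower (log2 fold change -0.58, adjusted p = 0.0286). Col3a1, type III collagen, measured 65.5, 43.6 and 99.1 CPM in the mutants, against 76.9, 61.6 and 76.1 CPM in wild type (log2 fold change -0.04, SE 0.271, edgeR adjusted p = 0.949). The mutants again bracketed wild type. The signs of Col1a1 and Col3a1, and with them that of the class median of -0.04, turned without mutant replicate 2, without wild-type replicate 1 and with the file code (described at the end) as a term. Col3a1 and the median also turned without wild-type replicate 3 (both 0.0037), so no direction is given for them.

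The type V chains, which sit inside type I fibrils and set their diameter, lay apart from types I and III. Col5a2 measured 67.7, 47.8 and 76.0 CPM in the mutants, against 43.5, 18.1 and 41.4 CPM in wild type, with no overlap and with wild-type replicate 2 far below the rest (log2 fold change 0.90, SE 0.330, edgeR adjusted p = 0.234; DESeq2 0.0527, range over these alternatives 0.0496 to 0.549). Col5a1 measured 26.3, 30.0 and 31.7 CPM in the mutants, against 10.9, 25.2 and 21.4 CPM in wild type. Here wild-type replicate 1 was the low library, and the gap between the groups was narrow (log2 fold change 0.61, SE 0.279, edgeR adjusted p = 0.301). Col5a2 lies next to Col3a1 on chromosome 1, yet the neighbours' fold changes were 0.90 and -0.04; whether they differ was not tested.

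**Figure D2:**
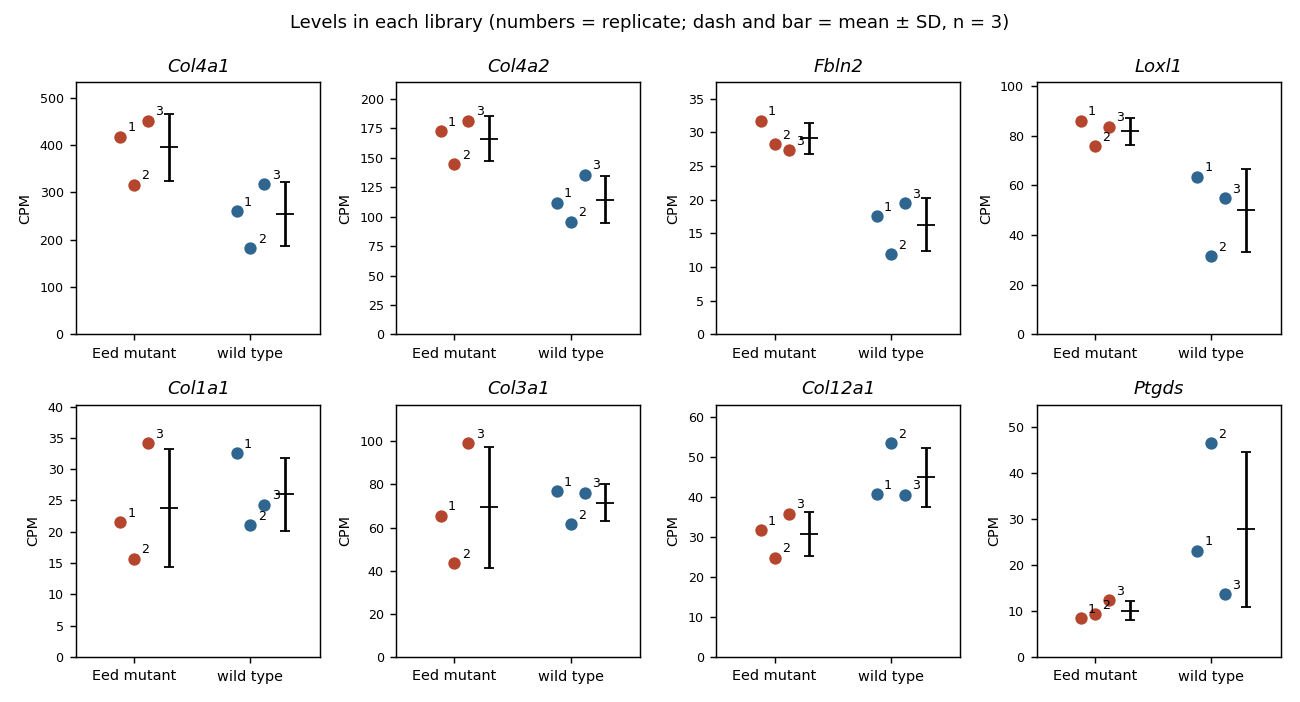
CPM in each library, with the replicate number beside each point and the mean ± SD (n = 3) beside each group, for 8 genes; every axis starts at 0. For Col4a1 the groups touch. For Col4a2, Fbln2 and Loxl1 the mutant points lie above all wild-type points and for Col12a1 and Ptgds below them, while for Col1a1 and Col3a1 mutant replicates 2 and 3 lie on either side of wild type.

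Set against each other on the TPM scale, the type I and III chains and the type IV chains differed in their balance. The summed TPM of Col1a1, Col1a2 and Col3a1 divided by that of Col4a1 and Col4a2 was 0.274, 0.249 and 0.373 in the mutants, against 0.531, 0.602 and 0.457 in wild type. Every mutant ratio lay below every wild-type ratio, with means of 0.299 ± 0.0654 in the mutants and 0.530 ± 0.0724 in wild type (SD, n = 3 each). This form of the ratio was chosen after the values were seen and has no test. Over the whole classes, fibrillar over basement membrane TPM was 0.200, 0.167 and 0.229 in the mutants, against 0.274, 0.238 and 0.237 in wild type, where mutant replicate 3 came close to wild-type replicates 2 and 3. Among chain ratios within a collagen, that of Col1a1 to Col1a2 averaged 0.551 ± 0.0728 in the mutants and 0.518 ± 0.0402 in wild type (SD, n = 3 each; exact two-sided permutation p = 0.6).

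**Figure D3:**
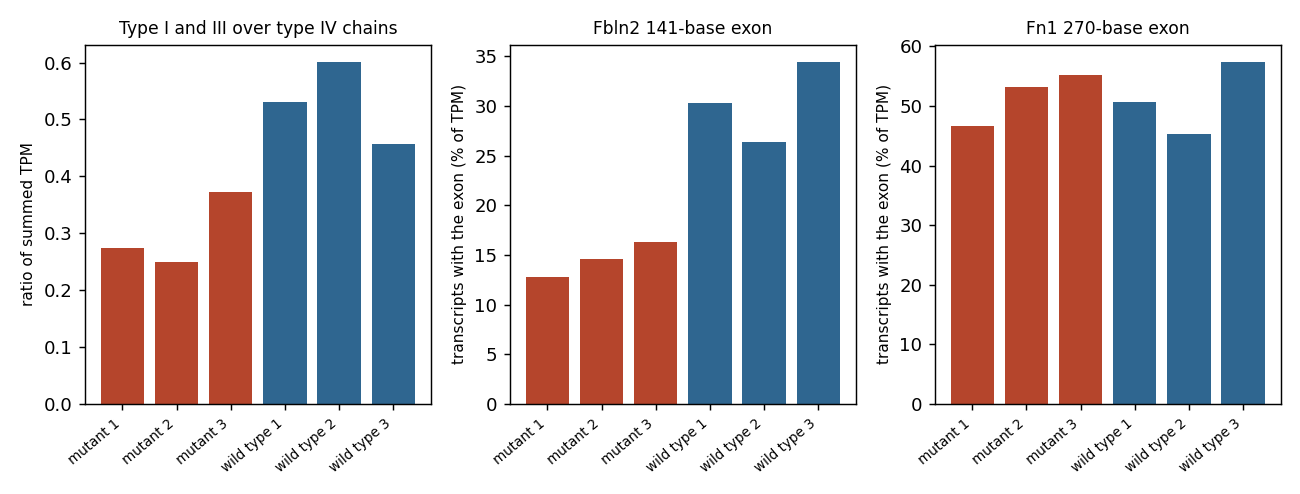
The left panel gives the ratio of summed TPM of type I and III chains to type IV chains in each library, and the other panels give the share of spanning transcripts (percent of TPM) that hold the 141-base exon of Fbln2 and the 270-base exon of Fn1. The mutant bars are lower than all wild-type bars in the first and second panels, and the groups overlap in the last.

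The remaining collagens held the 1 gene of the 41 that DESeq2 called lower. Col12a1 encodes a collagen that decorates the surface of fibrils, and measured 31.6, 24.8 and 35.9 CPM in the mutants, against 40.7, 53.5 and 40.6 CPM in wild type (chromosome 9, 79598991 to 79718831, minus strand). The groups did not overlap, with mutant replicate 2 lowest and wild-type replicate 2 highest (log2 fold change -0.55, SE 0.165, edgeR adjusted p = 0.184; DESeq2 0.0468, range over these alternatives 0.0468 to 0.495). DESeq2 kept this call without mutant replicate 3 or wild-type replicate 3 and lost it without each of the other 4 libraries. The beaded-filament chains of type VI, Col6a1, Col6a2 and Col6a3, had log2 fold changes of 0.02, 0.30 and -0.11. Wild-type Col6a1 was at 15.7 to 15.9 CPM in all 3 libraries, while the mutants ran from 11.1 to 21.4 CPM, and its sign changed under some settings. The TPM ratio of Col6a1 to Col6a2 was 1.14 to 1.25 in the mutants and 1.34 to 1.59 in wild type, and that of Col6a3 to Col6a1 was 0.266 to 0.341 in the mutants and 0.354 to 0.632 in wild type (each exact two-sided permutation p = 0.1, and 0.35 after adjustment over 7 ratios). Col8a1, a short-chain collagen of vessels and of a corneal membrane, had 1.92 to 5.22 CPM in the mutants and 2.20 to 3.45 CPM in wild type. Col13a1, a transmembrane collagen, had 2.34 to 4.69 CPM in the mutants and 2.93 to 4.32 CPM in wild type. Both overlapped fully.

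Collagens outside the 41 were also called. Of 26 tested, 4 were called higher by DESeq2 (15.4%, against 2.96% of all genes) and 0 lower. Their median log2 fold change was 0.32, and 9 of the 26 were below 0. Without overlap between the groups, 3 were higher (11.5%, below the 13.1% of all genes) and 1 lower (3.85%, below the 11.9% of all). Col27a1, a fibrillar collagen of cartilage, measured 70.3, 43.1 and 53.0 CPM in the mutants, against 20.1, 19.5 and 25.0 CPM in wild type (log2 fold change 1.37, SE 0.190). Col22a1, a collagen of tissue junctions that include those of muscle and tendon, measured 1.83, 1.52 and 2.09 CPM in the mutants, against 0.653, 0.922 and 0.976 CPM in wild type (log2 fold change 1.10, SE 0.243). Both were without overlap between the groups. Of 24 genes for collagen synthesis and processing, DESeq2 called 2 higher (8.33%, against 2.96% of all) and 0 lower, the median was 0.06, and the called genes were Pcolce2 (log2 fold change 0.89), which enhances procollagen cleavage, and Fkbp10 (0.49), a chaperone of procollagen.

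The matricellular genes had all 5 fold changes above 0 and a median of 0.33, and none was called by edgeR or DESeq2 over all 6 libraries. Sparc, a collagen-binding glycoprotein and the most abundant of the 41, averaged 329 ± 65.4 TPM in the mutants and 324 ± 46.1 TPM in wild type (SD, n = 3 each). In CPM it measured 435, 346 and 510 in the mutants, against 394, 476 and 363 in wild type, with the mutants on both sides of wild type (log2 fold change 0.07, SE 0.160, edgeR adjusted p = 0.856). Its sign turned without mutant replicate 3 or wild-type replicate 3. Tnc, tenascin C, an anti-adhesive glycoprotein of developing and tumour stroma, measured 56.2, 49.3 and 61.1 CPM in the mutants, against 24.1, 59.6 and 39.5 CPM in wild type. Wild-type replicate 2 lay among the mutants and wild-type replicate 1 far below them (log2 fold change 0.44, SE 0.291, edgeR adjusted p = 0.456). Without wild-type replicate 2, DESeq2 called Tnc higher (log2 fold change 0.81, adjusted p = 0.00955). Postn, periostin, which binds collagen and fibronectin, measured 10.9, 6.53 and 12.4 CPM in the mutants, against 6.72, 5.94 and 11.1 CPM in wild type, and the groups overlapped (log2 fold change 0.33, SE 0.312, edgeR adjusted p = 0.600). Thbs1, an anti-angiogenic thrombospondin, had 1.88 to 2.34 CPM in the mutants and 1.21 to 1.86 CPM in wild type, a narrow gap (log2 fold change 0.45), and its relative Thbs2 had 4.76 to 7.22 CPM in the mutants and 4.28 to 7.14 CPM in wild type. The 273-base cassette exon of Tnc was in 73.8% ± 2.64 of spanning transcripts by TPM in the mutants and 66.7% ± 5.09 in wild type (SD, n = 3 each), with overlap.

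The proteoglycans split evenly. Bgn, biglycan, had 30.1 to 42.1 CPM in the mutants and 25.6 to 32.3 CPM in wild type (log2 fold change 0.28), and Vcan, versican, a large hyaluronan-binding proteoglycan, had 120 to 140 CPM in the mutants and 114 to 121 CPM in wild type (0.14). Lum, lumican, a small proteoglycan that spaces collagen fibrils, measured 9.83, 5.92 and 11.4 CPM in the mutants, against 12.7, 9.13 and 15.5 CPM in wild type. Wild-type replicate 2 lay within the mutant range (log2 fold change -0.46, SE 0.282, edgeR adjusted p = 0.423). Ogn, osteoglycin, had 1.65 to 3.44 CPM in the mutants and 2.12 to 2.89 CPM in wild type. The 2880-base exon of Vcan, from the glycosaminoglycan-attachment part, was in 81.4% ± 4.01 of spanning transcripts by TPM in the mutants and 82.8% ± 3.04 in wild type (SD, n = 3 each).

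Of the genes that crosslink or cut the matrix, Loxl1 stood out. It encodes a lysyl oxidase relative that crosslinks elastic fibres, and measured 86.0, 75.7 and 83.6 CPM in the mutants, against 63.4, 31.5 and 54.9 CPM in wild type (chromosome 9, 58287738 to 58313186, minus strand). All mutant libraries lay above all of wild type, and the wild-type spread came mostly from replicate 2 (log2 fold change 0.71, SE 0.233, edgeR adjusted p = 0.202; DESeq2 0.0404, range over these alternatives 0.0404 to 0.531). DESeq2 lost the call when any 1 of the mutant replicates was left out. Lox, which crosslinks collagen and elastin, was at 3.26, 11.1 and 3.52 CPM in the mutants, against 14.6, 1.86 and 15.1 CPM in wild type. In each group 1 library stood opposite to the other two: replicate 2 was high in the mutants and low in wild type (log2 fold change -0.82, SE 0.777, edgeR adjusted p = 0.601). Lox was singled out after its values were seen.

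The protease and its inhibitors were called by neither tool over all 6 libraries. Mmp2, gelatinase A, had 11.6 to 13.8 CPM in the mutants and 9.99 to 15.2 CPM in wild type. Timp3, the matrix-bound inhibitor of metalloproteinases, measured 85.9, 95.9 and 99.0 CPM in the mutants, against 73.5, 100.5 and 75.4 CPM in wild type (log2 fold change 0.17, SE 0.129, edgeR adjusted p = 0.509). Timp1, a secreted inhibitor, was low, at 1.42, 2.11 and 1.21 CPM in the mutants, against 1.21, 2.16 and 1.79 CPM in wild type (log2 fold change -0.12, SE 0.304, edgeR adjusted p = 0.867). For both inhibitors wild-type replicate 2 was the highest library, and without it DESeq2 called Timp3 higher (log2 fold change 0.33, adjusted p = 0.0401). Among 22 further metalloproteinases, inhibitors and lysyl oxidases, DESeq2 called 1 higher (4.55%, near the 2.96% of all genes) and 0 lower, the versican-cleaving protease Adamts9 (log2 fold change 0.68).

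The fibroblast and meningeal markers were the class with all fold changes below 0, with a median of -0.93, and none was called. Ptgds, a prostaglandin D synthase abundant in meninges, choroid plexus and oligodendrocytes, measured 8.41, 9.34 and 12.4 CPM in the mutants, against 23.1, 46.6 and 13.6 CPM in wild type. Wild-type replicate 2 was far above all others, and mutant replicate 3 was just under wild-type replicate 3 (log2 fold change -1.47, SE 0.423, edgeR adjusted p = 0.173; DESeq2 0.0838, range over these alternatives 0.0838 to 0.509). DESeq2 called Ptgds lower when it was given the genes of the edgeR filter alone (adjusted p = 0.00551), and without wild-type replicate 2 or wild-type replicate 3. Slc6a13, a GABA transporter of meningeal and vascular fibroblasts, measured 2.00, 1.73 and 2.87 CPM in the mutants, against 3.59, 5.53 and 3.46 CPM in wild type. The groups did not overlap and wild-type replicate 2 was again highest (log2 fold change -0.93, SE 0.276, edgeR adjusted p = 0.180; DESeq2 0.0543, range over these alternatives 0.0543 to 0.514). Islr, a mesenchymal cell surface protein, had 11.95 to 14.3 CPM in the mutants and 10.4 to 17.3 CPM in wild type (log2 fold change -0.05). Wild-type replicate 2 also held the highest oligodendrocyte sum, 1526 CPM, where the rest of wild type had 545 and 880 CPM. The part of oligodendrocyte RNA in the Ptgds values was not tested.

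Markers of meningeal fibroblasts outside the 41 had fold changes in both directions. Of 18 tested, 7 fold changes were above 0 and 11 below, with a median of -0.18 and with sums of 311 to 410 CPM in the mutants and 391 to 445 CPM in wild type that came mostly from Pdgfra, a receptor also found on glial progenitors. DESeq2 called 1 higher (5.56%, against 2.96% of all genes), Foxd1 (log2 fold change 1.33), a transcription factor of stromal lineages, and 1 lower (5.56%, against 2.26%), Dcn (-0.75). Dcn, the fibril-binding proteoglycan decorin, measured 16.3, 11.99 and 20.1 CPM in the mutants, against 29.8, 26.5 and 24.9 CPM in wild type, without overlap.

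Some receptors and glycoproteins of the matrix beyond the 41 were also called. Of 25 matrix receptors, DESeq2 called 2 higher (8.0%, against 2.96% of all genes) and 0 lower, with a median log2 fold change of 0.07: Itga9 (1.07), an integrin subunit that binds tenascin C, and Sdc1 (0.69), a cell surface heparan sulfate proteoglycan. Of 44 other matrix glycoproteins and proteoglycans it called 2 higher (4.55%, against 2.96% of all) and 4 lower (9.09%, against 2.26%), with a median of -0.14. Those higher were Thbs3 (0.98), a thrombospondin, and Mfap4 (0.75), a microfibril-associated protein, and those lower included Matn4 (-0.78), a matrilin, and Dcn. The groups did not overlap for 7 of the 25 receptors (28.0%, against 25.1% of all genes). They did not overlap for 18 of the 44 others (40.9%, against 25.1%), 9 higher and 9 lower.

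Within each group many of the 41 genes were high or low in the same library. Mutant replicate 3 was the highest of all 6 libraries for 27 of the 41 and the highest mutant for 33, and mutant replicate 2 was the lowest mutant for 31 and the highest of 6 for none. In wild type, replicate 2 was lowest for 28 and replicate 3 highest for 19. These counts were made over the 41 alone, so whether all genes share this order was not tested. Of 10 marker lists, 4 had the same order among the mutants, replicate 3 highest and replicate 2 lowest, and their sums are given first. Pericyte and smooth muscle markers summed to 286, 270 and 321 CPM in mutant replicates 1 to 3, against 220, 222 and 254 CPM in wild type, and astrocyte and Bergmann glia markers to 2368, 2005 and 2559 CPM in the mutants, against 2881, 2988 and 2206 CPM in wild type. Skeletal muscle markers summed to 137, 70.1 and 359 CPM in the mutants, against 7.68, 9.17 and 27.8 CPM in wild type, and choroid plexus markers to 198, 117 and 315 CPM in the mutants, against 265, 228 and 174 CPM in wild type. None of the 10 choroid plexus markers was called by DESeq2. The part of these tissues in the order of the libraries was not tested.

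**Figure D4:**
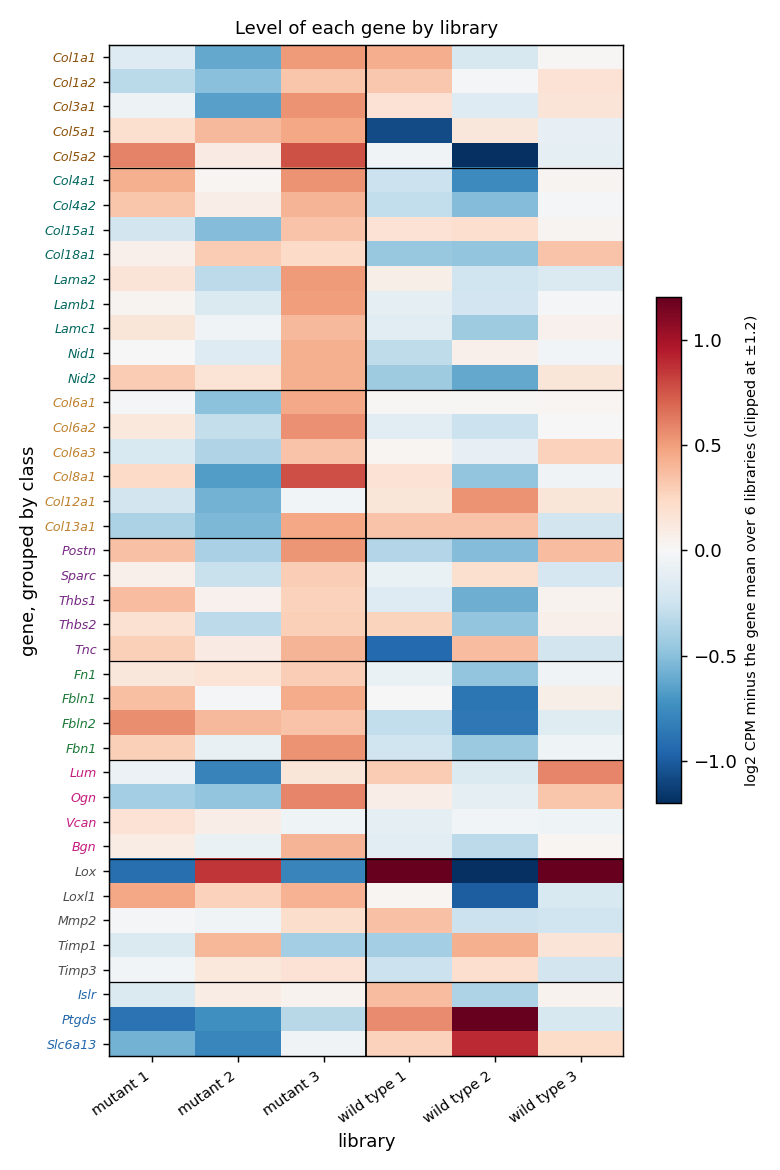
Each row is a gene, grouped by class, and each column a library, with the 3 mutants left of the 3 wild types; colour is the log2 CPM minus that gene's mean over the 6 libraries, clipped at the ends of the scale. The column of mutant replicate 3 is the most uniformly high, mutant replicate 2 is low for types I, III and VI, and Lox shows opposite colours within each group.

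The libraries carry a code in the deposited data whose meaning the sources used here do not give. One code held mutant replicates 1 and 2 with wild-type replicate 2, another held mutant replicate 3 with wild-type replicate 3, and wild-type replicate 1 had its own. Fbln2 was at 31.7 and 28.3 CPM in the mutants and 11.9 CPM in wild type of the first code, and at 27.4 CPM in the mutant and 19.5 CPM in wild type of the second code. Col4a1 was at 418 and 316 CPM in the mutants and 183 CPM in wild type of the first code, and at 452 CPM in the mutant and 317 CPM in wild type of the second code. Col12a1 was at 31.6 and 24.8 CPM in the mutants and 53.5 CPM in wild type of the first code, and at 35.9 CPM in the mutant and 40.6 CPM in wild type of the second code. With the code as a term, the fold changes no longer drew on wild-type replicate 1, since no other library shares its code. The log2 fold changes were then 0.96 for Fbln2, 0.79 for Col4a1, 0.59 for Col4a2, 1.03 for Loxl1 and -0.61 for Col12a1. Each had the same direction as without the code. DESeq2 then called 7 of the 41 higher and no longer called Col12a1. The share of all genes it called with the code as a term was not taken.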

How the data were processed

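RNA-seq of 6 mouse medulloblastomas was deposited by the authors as 1 transcript table per sample, with kallisto estimated counts, TPM and transcript lengths, per the file headers. kallisto 0.43.1, GRCm38 and mm10 are listed in the submitters' processing notes. The sources used here do not give strand, read length, RNA selection or the GENCODE release, and a gene and an antisense partner therefore cannot be separated.

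From the deposited estimated counts and TPM, values were added up by gene, and counts were rounded to whole numbers. Libraries were grouped by the genotype label. The groups were compared with edgeR 4.0.16 (default expression filter, TMM, quasi-likelihood F-test, Benjamini-Hochberg adjustment over all tested genes) in R 4.3.3. DESeq2 1.42.0 on all genes with at least 1 count, and limma 3.58.1, were run beside it. CPM are scaled by TMM factors, and fold changes are mutant over wild type. Coordinates and exons come from GENCODE M21 on GRCm38, matched by identifier, with 203 of 205 transcripts also equal in length. Promoter windows are from RefSeq on GRCm38.p6, found for 30 of the 41 genes.

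The 41 genes, the other lists and the tests were chosen with earlier results of these data known. Values of every library are given for 14 fixed genes and for others called by either tool, or without overlap between the groups and with an absolute log2 fold change of at least 0.5. From the other lists, the 2 genes with the smallest p in each direction among DESeq2 calls are named. Exact permutation tests were used for ratios and transcript shares, with 0.1 the smallest p. The alternatives were RLE or library-size scaling, limma-voom, limma-trend on log2(TPM + 1), no filter, a minimum CPM of 1 in 3 or more samples, the replicate block, leaving out each library, and the file code. The file code as a term, the alternatives to the DESeq2 counts, the ratio of types I and III to type IV, and exon inclusion were added after seeing the data. The fits were tested on simulated counts at this sample size, where the share of false calls was well above the nominal rate for DESeq2 and close to it for edgeR, so a DESeq2 call here is weaker evidence than its adjusted p states. Floors cover counting error only.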

Additional observations from a re-analysis of the deposited data

How the results depend on the processing

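Of 615 values of single genes under the alternatives, 578 kept their direction and side of the threshold, 8 passed it and 29, in 11 genes, changed sign. edgeR called 0 of the 41 genes higher and 0 lower. DESeq2 called 4 higher and 1 lower. Over all genes tested, deviations of same-numbered libraries from their group means correlated at 0.227, 0.0624 and -0.135. Of 6 libraries, 3 matched their own number best, a hint from the data and not the design. Among the 41, replicate 2 was the lowest mutant for 31 genes and the lowest wild type for 28, counts not made over all genes. With the replicate block edgeR called 3 higher, and DESeq2 called 10 higher, Lamc1 and Nid2 among them, and 0 lower. When the file code was added to the fit, DESeq2 called 7 higher and 0 lower, and on the genes of the edgeR filter alone it called 2 lower, Col12a1 and Ptgds. Leaving out 1 library at a time, DESeq2 called 0 to 8 genes higher and 0 to 2 lower. It called 0 higher without mutant replicate 1, 1 without mutant replicate 3, 2 without wild-type replicate 1 and 8 without wild-type replicate 3. The share of all genes called was taken for the main edgeR and DESeq2 fits alone. The counts under the replicate block, the file code, the edgeR filter and the left-out libraries therefore have no such share beside them.

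Adding the file code to edgeR changed the sign of the log2 fold changes of Col1a1 (0.10), Col3a1 (0.061) and Islr (0.19), and that of Col6a1 changed with limma-voom (-0.032), limma-trend (-0.050) and the replicate block (-0.030). Without 1 library at a time the log2 fold changes that changed sign ranged from -0.48 to 0.10 for Col1a1, -0.39 to 0.20 for Col3a1, -0.25 to 0.22 for Col6a1, -0.35 to 0.027 for Col6a3, -0.061 to 0.61 for Col8a1, -0.073 to 0.20 for Sparc, -0.10 to 0.25 for Thbs2, -0.55 to 0.062 for Ogn, -0.031 to 0.30 for Mmp2, -0.39 to 0.078 for Timp1 and -0.22 to 0.14 for Islr. The cause was not tested. The basement membrane median kept its sign throughout, from 0.21 to 0.45, and the fibrillar median did not, from -0.39 to 0.20. Timp1, Thbs1, Ogn, Slc6a13, Col8a1 and Col13a1 lay below 6 CPM in every library, where counting error is largest.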
